A study of Mus musculus with 6 samples.

Results

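The vascular endothelial growth factor (VEGF) family was described in 6 droplet libraries of mouse single-cell RNA by 9 of the 31053 genes measured. These were the ligand genes Vegfa, Vegfb, Vegfc and Pgf, the receptor tyrosine kinase genes Flt1, Kdr and Flt4, and the co-receptor genes Nrp1 and Nrp2. The members were chosen by name, and all 9 were found in every library. Gene levels were read in 35083 cells with at least 300 genes, under 100000 unique molecular identifiers (UMIs) and under 10% mitochondrial UMIs.

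Of the 6 libraries, 3 were bone marrow-derived dendritic cells (BM-DCs) grown with GM-CSF from wild-type C57BL/6J mice, 1 library each. The first held untreated cells, the second held cells stimulated with vitamin D3 (VD3, 1,25-dihydroxy-cholecalciferol, 1e-06 M for 24 h from day 7 of culture), and the third held Ndrg2-KO cells, which had been nucleofected with Cas9 and 3 guides against Ndrg2. The untreated cells were not nucleofected, so an effect of nucleofection and one of Ndrg2 loss cannot be told apart here. The other 3 libraries came from splinted excisional wounds of wild-type mice, covered with a pullulan-collagen hydrogel that was seeded with control DCs, seeded with Ndrg2-KO DCs or left blank, and explanted on day 10. The design text of the series speaks instead of GFP+ cells from wounds of parabiotic mice, which differs from the labels and methods of these libraries, and the labels were followed. Each wound group had 5 mice by the description of the experiment and was deposited as 1 library. The control DCs are labelled as untreated, and by the methods they were nucleofected with non-targeting guides. The transferred DCs carried no usable label in the counts, so they cannot be told from the host's own cells. Each condition thus had 1 library, differences between conditions could not be checked against replicates, and no p-values are given. Intervals in the text are exact 95% intervals that cover counting error only.

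VEGF-A is the main growth factor for blood vessel endothelium, and hypoxic or activated myeloid cells, fibroblasts and keratinocytes are known sources of it in healing skin. It binds the kinases VEGFR1 (Flt1) and VEGFR2 (Kdr), of which Kdr carries most of the endothelial growth signal and Flt1 binds the ligand tightly but signals weakly. VEGF-B and placental growth factor (Pgf) bind Flt1, VEGF-C acts mainly on lymphatic endothelium through VEGFR3 (Flt4), and the neuropilins are shared with the semaphorins, a family of guidance cues.

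The kept libraries held 116461484 to 143627482 UMIs in 7257 to 8825 cells for the DCs and 29675507 to 49240341 UMIs in 1948 to 5681 cells for the wounds. Median depth was 12089 to 16316 UMIs per cell in the DC libraries and 4415 to 10795 in the wounds. At most 19 cell barcodes were shared by any pair of libraries, 0.264% of the cells of either one at most. Median mitochondrial UMIs ranged from 5.30% in untreated to 6.60% in Ndrg2-KO DCs. The DC genes Itgax and H2-Ab1 were present in all 3 cultures. In untreated, VD3 and Ndrg2-KO DCs, Itgax stood at 146, 77.8 and 263 counts per 1000000 UMIs of the library (CPM). H2-Ab1 stood at 908, 561 and 487 CPM, Flt3 at 2.69, 1.10 and 0.794 and Zbtb46 at 18.8, 25.5 and 7.96. Each of these DC genes other than Itgax was lowest in Ndrg2-KO DCs. The cultures also held other myeloid markers, and 8 neutrophil markers summed to 5135, 5994 and 395 CPM in the same order. The 8 macrophage markers of the list summed to 769, 1020 and 1506 CPM, with none at 0, and the part of these cells in the VEGF values was not tested beyond the cell states described later. Ndrg2 itself stood at 4.62 CPM in untreated, 1.42 CPM (1.21 to 1.65) in VD3 and 0.884 CPM (0.737 to 1.05) in Ndrg2-KO DCs. The 3′ counts do not show the edited site, so this level is not a measure of editing.

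Coordinates are those of GRCm38. Vegfa spans chr17:46016993-46032369 on the minus strand, Pgf chr12:85166635-85177790 on the minus strand, Flt1 chr5:147561604-147726011 on the minus strand and Kdr chr5:75932827-75978458 on the minus strand. Nrp1 spans chr8:128358604-128503363 and Nrp2 chr1:62703285-62818695, both on the plus strand. Since Vegfa, Flt1 and Pgf were the members that differed most between the DC libraries, the 250 bases before their RefSeq transcript starts (GRCm38.p6) are shown, written 5′ to 3′ on the strand of the gene. Capitals mark the core of the hypoxia response element (ACGTG or GCGTG) and the GC box that Sp1 factors bind (GGGCGG), searched on both strands, and no base belonged to both. The Vegfa and Pgf windows are those of the outermost start in RefSeq.

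Vegfa, chr17:46032378-46032627, minus strand: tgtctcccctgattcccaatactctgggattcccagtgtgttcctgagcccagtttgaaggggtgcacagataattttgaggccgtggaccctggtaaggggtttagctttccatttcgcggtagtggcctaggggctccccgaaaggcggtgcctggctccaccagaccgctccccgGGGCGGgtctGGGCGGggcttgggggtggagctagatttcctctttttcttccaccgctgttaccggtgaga

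Flt1, chr5:147726012-147726261, minus strand: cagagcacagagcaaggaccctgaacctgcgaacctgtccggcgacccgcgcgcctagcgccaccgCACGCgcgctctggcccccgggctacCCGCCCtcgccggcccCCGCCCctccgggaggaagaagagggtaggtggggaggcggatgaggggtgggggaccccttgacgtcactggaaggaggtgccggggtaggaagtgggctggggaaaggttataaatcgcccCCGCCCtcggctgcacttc

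Pgf, chr12:85177314-85177563, minus strand: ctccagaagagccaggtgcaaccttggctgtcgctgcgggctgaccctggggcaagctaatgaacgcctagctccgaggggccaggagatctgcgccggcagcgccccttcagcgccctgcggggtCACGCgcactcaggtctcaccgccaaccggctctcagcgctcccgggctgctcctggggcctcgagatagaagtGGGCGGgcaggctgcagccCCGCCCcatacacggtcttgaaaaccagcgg

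The GC box occurred 2 times in the Vegfa, 3 times in the Flt1 and 2 times in the Pgf window, and in 32.7% of 32851 promoters of this length. The hypoxia core was not found in the Vegfa window, while GCGTG occurred once in Flt1 and once in Pgf. Among all promoters, 16.6% held ACGTG, 28.2% GCGTG and 38.6% either of them. RefSeq lists a second Vegfa start inside the gene, and the window before it, chr17:46025164-46025413, held both cores:

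Vegfa, inner start, minus strand: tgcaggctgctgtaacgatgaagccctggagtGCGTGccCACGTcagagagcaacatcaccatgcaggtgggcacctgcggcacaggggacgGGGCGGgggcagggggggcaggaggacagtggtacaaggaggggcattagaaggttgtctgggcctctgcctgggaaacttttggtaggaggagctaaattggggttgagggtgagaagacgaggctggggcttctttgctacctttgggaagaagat

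The window before an inner Pgf start, chr12:85175983-85176232, held neither core and no GC box. These matches describe letters in these windows and say nothing of a factor that binds there.

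Among the ligands in DCs, Vegfa was the member that differed most upward. Its summed level was 3.64 CPM (95% interval 3.33 to 3.98) in untreated DCs, 14.4 (13.8 to 15.1) in VD3 DCs and 84.8 (83.3 to 86.3) in Ndrg2-KO DCs. The intervals were far apart and the order was untreated, VD3, Ndrg2-KO. The log2 ratio to untreated DCs was 1.99 (1.84 to 2.14) after VD3, a 3.96-fold difference that ranked above 98.7% of all genes tested, and 4.54 (4.41 to 4.68) in Ndrg2-KO DCs, a 23.3-fold difference above 99.5% of genes. In sums over a library, a higher share of expressing cells and more RNA per cell cannot be told apart. After each cell was drawn to 2000 UMIs, a Vegfa UMI was seen in 0.958% of 6785 untreated, 2.74% of 7676 VD3 and 15.6% of 7835 Ndrg2-KO DCs. Without drawing, these shares were 4.85%, 12.8% and 57.1%. For comparison, a cluster with nearly no Vegfa was read, the cDC1-like cells marked by Itgae and Clec9a. In it, 1.25% of 80 untreated and 3.55% of 141 VD3 cells had a UMI without drawing. Its median depths were 13671.5 and 11941 UMIs, beside 15804 and 12089 in the whole libraries. That cluster was taken for its low Vegfa level and held 1 Ndrg2-KO cell, so it gives no such share for that culture.

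Pgf ran opposite to Vegfa. This ligand, which binds Flt1 but not Kdr, was counted at 11.0 CPM (10.5 to 11.6) in untreated, 4.22 (3.86 to 4.61) in VD3 and 1.02 (0.865 to 1.20) in Ndrg2-KO DCs. The order over the 3 cultures was the reverse of that of Vegfa. Its log2 ratio to untreated DCs was -1.38 (-1.53 to -1.23) after VD3 and -3.43 (-3.68 to -3.18) in Ndrg2-KO DCs, 2.61-fold and 10.8-fold lower. Drawn shares of cells with a Pgf UMI were 1.46%, 0.756% and 0.204%.

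Vegfb, a ligand known for effects on heart and fat tissue more than on vessel growth, stood at 9.69 (9.17 to 10.2), 9.99 (9.42 to 10.6) and 17.4 CPM (16.8 to 18.1) in untreated, VD3 and Ndrg2-KO DCs. The untreated and VD3 intervals overlapped, and the Ndrg2-KO level was 1.80-fold that of untreated DCs. Vegfc, the lymphatic growth factor, was low, with 117, 87 and 192 UMIs, or 0.883, 0.747 and 1.34 CPM. Its log2 ratio of Ndrg2-KO to untreated DCs was 0.60 (0.26 to 0.94), and -0.23 among cells under 5% mitochondrial UMIs. Vegfd, the other ligand of Flt4 and no member of the list, had 28, 10 and 30 UMIs.

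Among the receptors in DCs, Flt1 separated the 3 cultures most. It was counted at 2.32 CPM (2.06 to 2.59) in untreated, 0.266 (0.181 to 0.378) in VD3 and 10.2 (9.68 to 10.7) in Ndrg2-KO DCs. VD3 and Ndrg2-KO cells lay on opposite sides of untreated cells, unlike for Vegfa and Pgf. The log2 ratio to untreated DCs was -3.12 (-3.70 to -2.59) after VD3, 8.70-fold lower, and 2.14 (1.96 to 2.32) in Ndrg2-KO DCs, 4.40-fold higher. Between the altered cultures, the Ndrg2-KO level was 38.3-fold that of VD3 cells (log2 ratio 5.26, 4.75 to 5.82). The cells with a Flt1 UMI were few even there, at 1.67% of drawn Ndrg2-KO cells against 0.251% of untreated and 0.0391% of VD3 cells.

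Kdr, the principal endothelial receptor, was nearly absent from DCs, with 22, 46 and 65 UMIs in untreated, VD3 and Ndrg2-KO cells. These amount to 0.166 (0.104 to 0.251), 0.395 (0.289 to 0.527) and 0.453 CPM (0.349 to 0.577). Its ratio to untreated cells passed 2-fold in both comparisons, but 1 drawn cell of 6785 untreated ones had a Kdr UMI, and the direction after VD3 turned when cells with 5% or more mitochondrial UMIs were left out. Flt4, the lymphatic receptor, had 4, 2 and 2 UMIs, too few to compare.

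Over the full span of the cultures, the co-receptors varied least of the members with enough UMIs to compare. After VD3 alone, Nrp1 (log2 ratio -0.53) moved more than Vegfb (0.04) and Vegfc (-0.24). Nrp2, which pairs with Flt4 and Kdr and with plexins, stood at 208 (205 to 210), 213 (211 to 216) and 192 CPM (190 to 195) in untreated, VD3 and Ndrg2-KO DCs. Drawn shares of cells with an Nrp2 UMI were 26.5%, 26.4% and 28.6%. Nrp1, the co-receptor of VEGF-A and of class 3 semaphorins that is also known from DC contacts with T cells, stood at 32.7 (31.7 to 33.7), 22.6 (21.7 to 23.5) and 37.5 CPM (36.5 to 38.5). Its log2 ratio to untreated DCs was -0.53 after VD3 and 0.20 in Ndrg2-KO cells, neither reaching 2-fold.

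**Figure D1:**
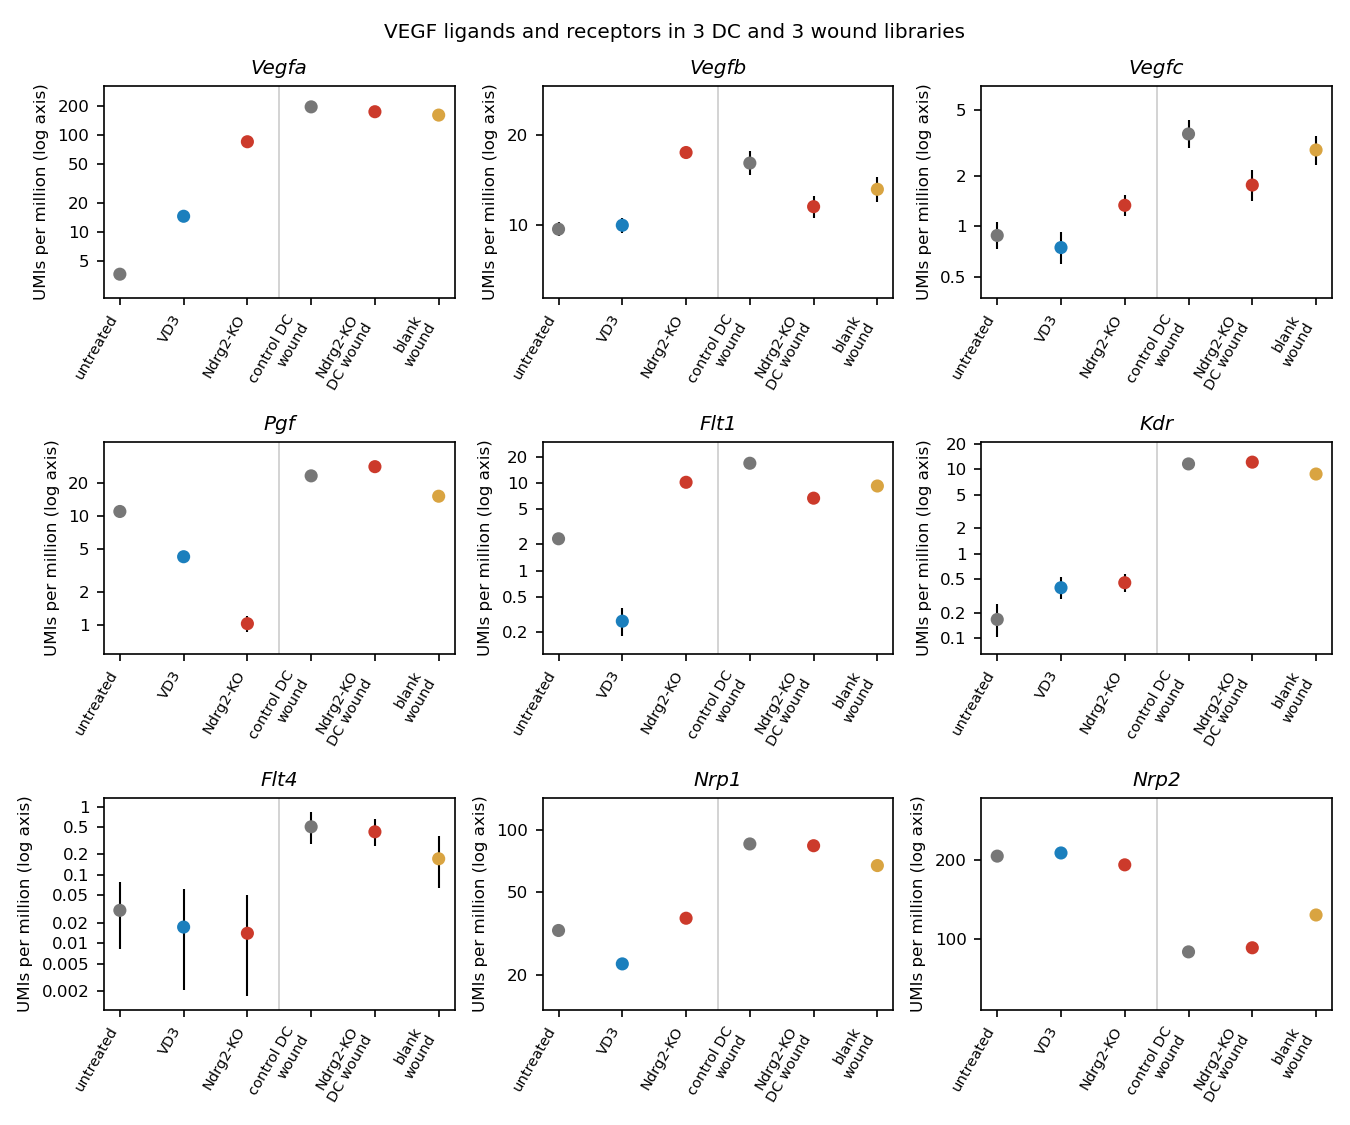
Summed level of each of the 9 genes in each library, in CPM on a log axis that differs between panels, with exact 95% Poisson intervals as bars and the grey line between DC and wound libraries. Vegfa runs upward from 3.64 in untreated to 84.8 in Ndrg2-KO DCs while Pgf runs downward from 11.0 to 1.02, and Nrp2 stays between 192 and 213 in the DCs.

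Counted as a family, with a difference called where the ratio was at least 2-fold and both libraries together held at least 20 UMIs, 8 of the 9 members could be compared between DC libraries. After VD3, 2 were higher (Vegfa and Kdr) where 5.10% of 14318 genes were called higher, and 2 were lower (Pgf and Flt1) where 8.49% were called lower. In Ndrg2-KO against untreated DCs, 3 were higher (Vegfa, Flt1 and Kdr), with 11.3% of 14484 genes called higher, and 1 was lower (Pgf), with 10.9% called lower. Both comparisons share the untreated library, so their calls are not independent of each other. In Ndrg2-KO against VD3 DCs, 2 were higher (Vegfa and Flt1) and 1 was lower (Pgf), where 14.1% and 11.0% of 14395 genes were called. The median log2 ratio of the members was -0.10, 0.72 and 0.77 in these comparisons, beside -0.07, -0.06 and -0.01 over all genes tested.

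The DC cultures differed in cell state, so the levels were also read within states set by marker counts in cells drawn to 2000 UMIs. The premature list held 8 genes of early myeloid cells and macrophages, among them Lyz2, Csf1r, Ccr2 and Mmp12, and the mature list held 8 genes of migrating DCs, among them Ccr7, Ccl22, Fscn1 and Il4i1. A cell with at least 3 markers of one list and fewer than 3 of the other was taken as premature or mature, and the remaining cells as both or neither. Premature cells made up 35.5% of untreated, 9.43% of VD3 and 62.9% of Ndrg2-KO cells, and mature cells 41.5%, 50.8% and 24.3%. Csf1r, Ccr2, Lyz2, Fn1 and Mmp12 of the premature list marked a cluster with 99.8% of its cells from Ndrg2-KO DCs. The premature shares thus depend on the choice of that list. These states are ranges of a score, since 33.7% to 41.6% of cells lay 1 marker from a limit.

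Vegfa was higher in the altered cultures within every state. In premature cells it stood at 3.36 CPM (2.91 to 3.87) in untreated, 20.9 (18.3 to 23.6) in VD3 and 87.8 CPM in Ndrg2-KO DCs, the intervals being apart. In mature cells the levels were 2.51 (2.07 to 3.02), 12.9 (12.0 to 13.8) and 62.9 (59.7 to 66.2). The log2 ratio of Ndrg2-KO to untreated DCs was thus 4.71 (4.50 to 4.92) in premature and 4.65 (4.37 to 4.93) in mature cells, close to the 4.54 of the whole culture. It was 5.38 (4.84 to 5.97) in cells of both states and 2.96 (2.64 to 3.28) in cells of neither. For VD3 it was 2.63 (2.36 to 2.91) and 2.36 (2.08 to 2.66), above the 1.99 of the whole culture, whereas cells of neither state gave 0.84 (0.56 to 1.12). Within untreated DCs, Vegfa was highest in cells of neither state, at 8.23 CPM (6.91 to 9.73).

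The other members kept to one state to very different degrees. Pgf was lowest in mature cells, at 1.39, 1.09 and 0.128 CPM in untreated, VD3 and Ndrg2-KO DCs. It stood at 17.5, 8.03 and 1.26 CPM in premature cells and at 13.7, 8.43 and 1.51 CPM in cells of neither state, the latter from 228, 314 and 5 UMIs. Its log2 ratio of Ndrg2-KO to untreated DCs was -3.80 (-4.07 to -3.53) in premature cells, so the lower level was also seen where the premature share was higher. Flt1 had 195, 4 and 1312 UMIs in premature cells (3.33, 0.342 and 12.9 CPM) and 7, 18 and 11 UMIs in mature cells (0.154, 0.284 and 0.471 CPM). In untreated DCs the premature level did not differ beyond counting error from that of cells of neither state (3.78) or of both (3.73), in VD3 DCs no state differed from another, and in Ndrg2-KO DCs premature cells were highest. Within premature cells its Ndrg2-KO level was 3.88-fold that of untreated DCs. Vegfc showed the opposite preference, with 93, 83 and 148 UMIs in mature cells and 8, 0 and 8 in premature cells. In mature cells it stood at 2.05, 1.31 and 6.33 CPM, a 3.09-fold higher level in Ndrg2-KO than in untreated cells (log2 ratio 1.63, 1.24 to 2.02). That difference within mature cells was wider than the 0.60 of the whole culture, in which mature cells were fewer.

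Nrp1 stood at 49.2, 38.7 and 45.6 CPM in premature and at 12.0, 11.8 and 9.20 in mature cells. Within both states the Ndrg2-KO level was below that of untreated cells, with log2 ratios of -0.11 (-0.18 to -0.04) and -0.39 (-0.62 to -0.16), whereas the whole cultures differed in the other direction. Nrp2 was broad, at 254, 267 and 203 CPM in premature and 179, 219 and 159 in mature cells. Vegfb stood at 10.3, 9.06 and 18.4 CPM in premature and 8.83, 9.42 and 13.1 in mature cells.

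**Figure D2:**
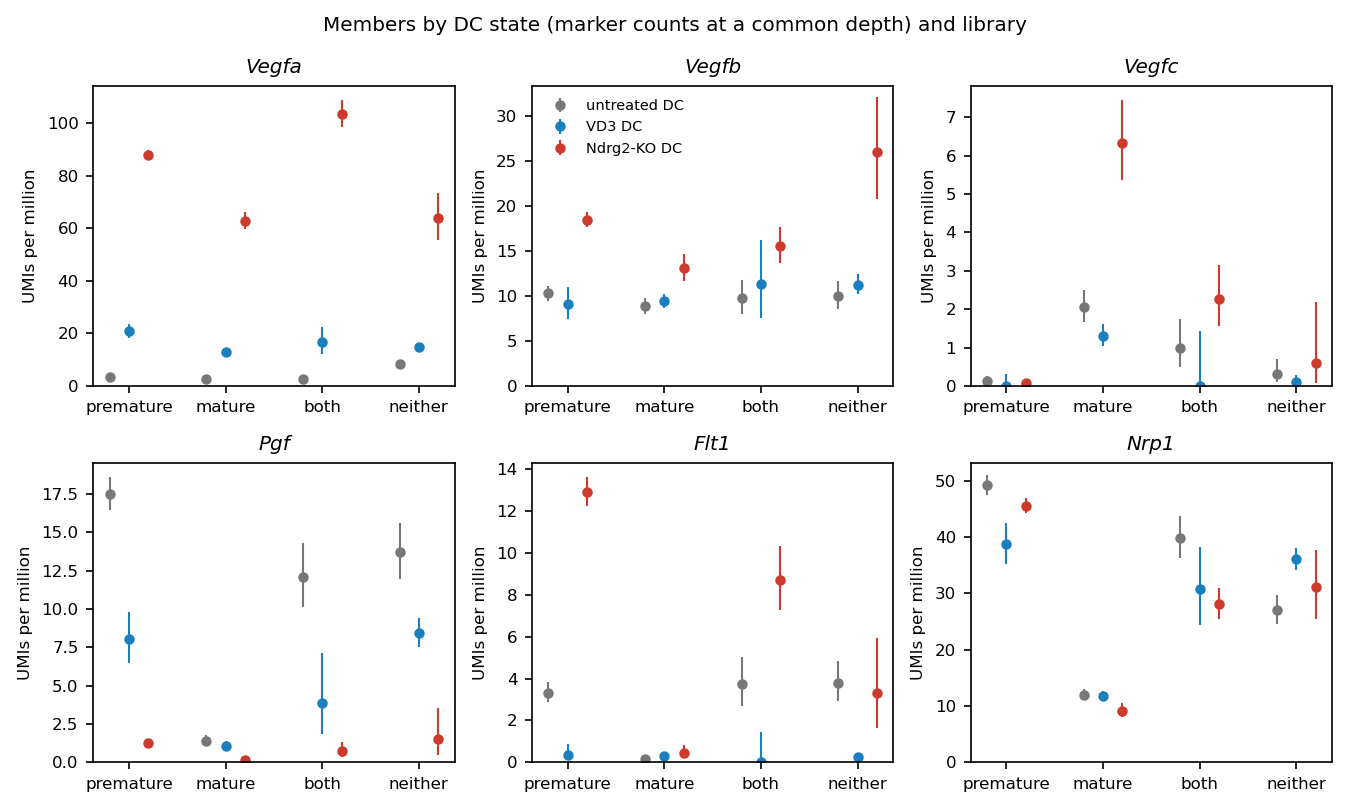
Level of 6 genes in the 4 DC states set by marker counts, in CPM on a linear axis from 0 that differs between panels, with one colour per DC library and exact 95% Poisson intervals as bars. Vegfa separates by library within each state (3.36, 20.9 and 87.8 in premature cells), while Pgf and Nrp1 are lowest and Vegfc is highest in mature cells. Flt1 is lowest in mature cells of the untreated and Ndrg2-KO cultures, and is near 0 in every state of the VD3 culture.

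Clusters of the DC libraries, made without the 9 genes, placed these levels more finely, although 11 of 16 clusters drew over 90% of their cells from 1 library. Cells of Ndrg2-KO cultures in the largest cluster, led by Arg1, Fabp4 and Mmp13, held 61.0% of that library's Vegfa UMIs at 99.8 CPM (97.6 to 102), and their mature DC-like cluster stood at 73.6. Where Ndrg2-KO cells shared the mature DC-like cluster of the untreated culture, 155 of them had 10.4 CPM against 2.21 in 2597 untreated cells. In untreated DCs the highest Vegfa levels lay outside the DC-like clusters, at 21.9 CPM (16.8 to 28.2) in the 104 cells of a cluster led by Elane and Prtn3, genes of neutrophil precursors, and at 19.3 in a granulocyte or monocyte-like cluster. Pgf was highest in cDC1-like cells, with 43.3 CPM (32.1 to 57.0) in 80 untreated and 29.5 (22.2 to 38.3) in 141 VD3 cells. Flt1 in untreated DCs was concentrated in a cluster led by Plet1 and Cxcl3, where 55.0% of its UMIs lay at 6.82 CPM. Nrp1 (70.9 CPM) and Nrp2 (355) also had their highest untreated levels in that cluster.

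Over 26 units, each a DC cluster within a library, the genes whose pattern was most like that of Vegfa were Sc5d (r = 0.825), Chil1 (0.824), Agrn (0.810), Ctse (0.806) and Slc22a4 (0.801). For Nrp2 the closest was Plxnd1, a plexin that forms receptor complexes with neuropilins, at r = 0.946, followed by Sulf2 (0.890), Sbf2 (0.874), Dse (0.865) and Il21r (0.858). For Nrp1 they were Mast4 (0.848), Pgap1 (0.814), Plpp3 (0.801), Lpin1 (0.796) and Snx30 (0.780). These are Pearson correlations of log2(CPM + 1) over 12107 genes, and the units share 3 libraries and their depths.

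The upstream and neighbouring genes of the pathway were read from lists. Their counts are to be read beside the shares of all genes called, which were 5.10% higher and 8.49% lower after VD3 and 11.3% and 10.9% in Ndrg2-KO DCs, and beside all-gene medians of -0.07 and -0.06. Of 8 genes of the hypoxia-inducible factor (HIF) pathway, the best known inducer of Vegfa, 1 was called higher after VD3 and 2 in Ndrg2-KO DCs, none lower. Hif1a, the oxygen-regulated subunit, stood at 114, 198 and 294 CPM in untreated, VD3 and Ndrg2-KO DCs, and Epas1, its homologue, at 0.181, 0.902 and 0.494. Of 19 HIF targets, 1 was higher and none lower after VD3, while 5 passed 2-fold upward and 2 downward in Ndrg2-KO DCs. The medians of the targets were -0.10 and 0.38. The members of that list went both ways in Ndrg2-KO DCs: Ankrd37 was at 4.36 and 15.6 CPM in untreated and Ndrg2-KO cells, P4ha2, a collagen-modifying enzyme, at 0.151 and 1.35, Adm, a vasoactive peptide, at 1.72 and 0.258, and Ndrg1 at 39.1 and 12.9. Of 10 targets of ATF4, a stress factor that can also induce Vegfa, none passed 2-fold after VD3, while Ndrg2-KO DCs had 1 higher and 3 lower. Asns stood at 20.8 and 3.43 CPM in untreated and Ndrg2-KO cells, and Chac1 at 1.12 and 0.146.

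Of 15 genes that carry the VEGF receptor signal inside the cell and could be compared, none was higher and 1 lower after VD3, while Ndrg2-KO DCs had 3 higher and 1 lower. Their medians were -0.22 and 0.26. Cav1, a membrane scaffold, followed the order of Flt1, at 13.4, 2.42 and 75.2 CPM in untreated, VD3 and Ndrg2-KO DCs. Of the semaphorins and plexins, 6 could be compared after VD3, with none higher and 1 lower, and 7 in Ndrg2-KO DCs, with 2 higher and 1 lower. Plxnd1 was at 118, 146 and 145 CPM. Of the proteins that process VEGF-C, Ccbe1, which brings the ligand to its protease, had 35, 7 and 231 UMIs in untreated, VD3 and Ndrg2-KO DCs, and Furin, which cleaves it, stood at 47.5, 34.0 and 45.2 CPM.

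In the wounds the question was which cells held the ligands and which held the receptors. The 11032 wound cells formed 15 clusters, made without the 9 genes, and were named where at least 3 markers of a list led. The classes were neutrophil-like (4905 cells), fibroblast-like (1256), monocyte-like, macrophage-like, dendritic cell-like, endothelial-like, keratinocyte-like, NK cell-like and erythroid-like cells and 5 unnamed clusters. Unnamed cluster 2, led by Mmp12, Mmp13 and Arg1, held 1329 cells with 2 macrophage markers. Unnamed cluster 7, led by Cd209f and Cd209g, carried all 8 macrophage markers, and was left unnamed because Lyve1, a lymphatic endothelial marker, was among its leading genes. Class sizes differed strongly: neutrophil-like cells were 23.4% of control DC, 51.0% of Ndrg2-KO DC and 45.7% of blank hydrogel wound cells, and fibroblast-like cells 24.1%, 8.15% and 9.49%.

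The endothelial-like cluster was small and mixed. It had 62, 80 and 50 cells in control DC, Ndrg2-KO DC and blank hydrogel wounds, and all 10 endothelial markers were present in each, with a sum of 3348, 3181 and 2862 CPM. Only 31, 20 and 12 of its cells showed at least 3 endothelial markers, and 11, 7 and 5 showed at least 3 mural markers, of pericytes and smooth muscle. Fibroblast markers summed to 12978, 10545 and 23313 CPM in it, more than the endothelial ones, and neutrophil markers to 3104, 6825 and 1435. Mast cell markers were at 117, 1694 and 122, skeletal muscle markers at 143, 549 and 3230 and melanocyte markers at 78.3, 4.44 and 1497 CPM, and the part of all these in the levels of the cluster was not tested. Median depth in it was 8315, 3275 and 7174 UMIs per cell.

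In whole wounds, Vegfa was counted at 194 (189 to 199), 173 (169 to 177) and 160 CPM (156 to 164) in control DC, Ndrg2-KO DC and blank hydrogel wounds. The highest level was in the control DC wound and the span was small, with a log2 ratio of -0.17 (-0.21 to -0.12) for Ndrg2-KO DC and -0.28 for blank hydrogel wounds. Scaled by the median ratio over genes in place of totals, the first of these was 0.0076, so its direction depended on the scaling. Pgf was at 23.4 (21.7 to 25.2), 28.5 (27.0 to 30.0) and 15.2 (13.9 to 16.6), highest with Ndrg2-KO DCs and lowest without cells. Vegfb was at 16.1, 11.5 and 13.1, and Vegfc had 106, 87 and 100 UMIs, or 3.57, 1.77 and 2.86 CPM. Vegfd was at 64.9, 61.8 and 46.1 CPM, with 94.1% of its UMIs in fibroblast-like cells.

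Among the receptors, Flt1 was at 16.8 (15.4 to 18.4), 6.72 (6.02 to 7.49) and 9.25 CPM (8.27 to 10.3) in the same order of wounds. Its log2 ratio of the Ndrg2-KO DC to the control DC wound was -1.32 (-1.53 to -1.12), and -0.93 without the cells of the highest 6% of doublet scores, which is under 2-fold. Few cells set the Flt1 totals, with 50% of the UMIs in 9, 13 and 8 cells of the wounds. Endothelial-like cells, which held 60.1% of Flt1 UMIs over all wounds, were 62 of 1948, 80 of 5681 and 50 of 3403 cells. The part of that share was not tested. Kdr was at 11.6 (10.4 to 12.9), 12.2 (11.2 to 13.2) and 8.80 (7.84 to 9.84), and Flt4 had 15, 21 and 6 UMIs in all. Nrp1 was at 85.3, 83.6 and 67.1 and Nrp2 at 89.6, 92.9 and 124 CPM. Of the 9 members, none was 2-fold higher and 2 (Vegfc and Flt1) were lower in the Ndrg2-KO DC against the control DC wound, where 5.16% and 7.63% of 14992 genes were called higher and lower. The Vegfc log2 ratio was -1.02 (-1.44 to -0.59), and -0.84 under median-ratio scaling, which is under 2-fold. In the blank hydrogel against the control DC wound none was higher and 1 (Flt4, with 6 against 15 UMIs) was lower, where 4.58% and 5.05% of 14725 genes were called. Both comparisons share the control DC wound. The median log2 ratio of the members was -0.17 and -0.35, beside -0.15 and -0.04 over all genes.

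The Vegfa of the wounds came from several classes. Over all wounds, cluster 2 held 34.3% and fibroblast-like cells 32.3% of its UMIs, followed by monocyte-like (10.7%), macrophage-like (9.89%) and neutrophil-like cells (5.80%), the last being 44.5% of the cells. Where 2 markers in place of 3 sufficed for a name, cluster 2 counted as macrophage-like and that class held 44.2%. The split moved with the makeup of the library: fibroblast-like cells held 42.0%, 27.3% and 29.7% in control DC, Ndrg2-KO DC and blank hydrogel wounds, and cluster 2 held 27.9%, 37.6% and 35.8%. By level, cluster 2 stood first at 392 CPM (383 to 401), before monocyte-like (256, 245 to 267), macrophage-like (199, 190 to 208) and fibroblast-like cells (171, 167 to 176). These 4 intervals did not overlap over all wounds, but within the blank hydrogel wound macrophage-like (165) and fibroblast-like cells (171) did not keep that order. Over all wounds, fibroblast-like, NK cell-like (160) and cluster 8 cells (139) did not differ beyond theirs. Dendritic cell-like (79.7) and neutrophil-like cells (66.7) overlapped as well. Endothelial-like cells (40.7), where the receptor kinases had their highest levels, and cluster 7 (34.5), rich in the neuropilins, were near the bottom of that order. Cells of any class with at least 3 endothelial markers stood at 136 CPM (124 to 148). Of their 260, 183 and 68 Vegfa UMIs in control DC, Ndrg2-KO DC and blank hydrogel wounds, fibroblast-like cells held 223, 143 and 50. Endothelial-like cells held 11, 22 and 10 of them, so that level was mostly one of fibroblast-like cells.

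Within classes, Vegfa in Ndrg2-KO DC and blank hydrogel wounds lay below the control DC wound in cluster 2, monocyte-like and macrophage-like cells and not in fibroblast-like cells. In cluster 2 it was at 647 (616 to 679), 374 (361 to 387) and 316 CPM (303 to 330) in control DC, Ndrg2-KO DC and blank hydrogel wounds, a log2 ratio to control of -0.79 (-0.88 to -0.70) and -1.03 (-1.13 to -0.94). Monocyte-like cells stood at 380, 247 and 200 and macrophage-like cells at 249, 191 and 165. Marker levels also differed between the wounds in these classes, in another order than Vegfa. The 8 neutrophil markers summed to 257, 6188 and 2077 CPM in cluster 2, to 2548, 7739 and 4070 in monocyte-like and to 341, 3421 and 1427 in macrophage-like cells, and the macrophage markers of cluster 2 to 14463, 7384 and 9790 CPM, with none at 0, and their part in the Vegfa levels was not tested. Fibroblast-like cells were at 163, 182 and 171, with a log2 ratio of 0.16 (0.08 to 0.24) for Ndrg2-KO DC wounds. Neutrophil-like cells went the other way, at 43.4, 71.0 and 66.0 CPM, a log2 ratio of 0.71 (0.36 to 1.09) for Ndrg2-KO DC wounds. This class joins clusters 0 and 1, and cluster 1 made up 86 of its 456, 1078 of its 2895 and 314 of its 1554 cells, the part of which was not tested. In cells drawn to 1000 UMIs, the share with a Vegfa UMI was 35.7%, 28.9% and 25.4% in cluster 2 and 4.22%, 6.54% and 7.01% in neutrophil-like cells, in the same direction as the levels.

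Pgf had other sources. Summed over the wounds, fibroblast-like cells held 25.7%, endothelial-like cells 17.4%, cluster 2 16.4%, monocyte-like cells 15.1% and dendritic cell-like cells 11.4% of its UMIs. The class with most UMIs differed by wound: endothelial-like cells with 256 of 695 (36.8%) in the control DC wound, fibroblast-like cells (357) and cluster 2 (355) of 1401 in the Ndrg2-KO DC wound, and monocyte-like cells with 136 (25.6%) in the blank hydrogel wound. By level, endothelial-like cells stood at 278, 138 and 145 CPM in control DC, Ndrg2-KO DC and blank hydrogel wounds, the highest class in the first and the last. Cells with at least 3 endothelial markers held 255 of 256, 59 of 93 and 103 of 107 of those UMIs, and the ones among them with fewer than 3 mural markers held 12, 10 and 26. Few cells set the totals of Pgf, with 50% of its UMIs in 6, 40 and 13 cells of the wounds and up to 158 in 1 cell. Dendritic cell-like cells were at 105, 183 and 64.5 CPM, the highest class in the Ndrg2-KO DC wound and next to endothelial-like cells in the others. In the Ndrg2-KO DC wound they had 174 UMIs, beside 128 in cluster 14 and 93 in endothelial-like cells. Their rank there was not beyond counting error. Neutrophil markers of dendritic cell-like cells summed to 886, 5106 and 4097 CPM and their T cell markers to 29.4, 144 and 102. The part of these was not tested. In cluster 2 the levels were 7.64, 41.4 and 9.03, with 19, 355 and 57 UMIs, and the log2 ratio of Ndrg2-KO DC to control DC wounds was 2.44 (1.77 to 3.19), or 1.02 as a mean over cells. Fibroblast-like cells were at 14.2, 27.9 and 11.1, a log2 ratio of 0.97 (0.72 to 1.23). In these classes of the Ndrg2-KO DC wound, Pgf was thus above control where Vegfa was below it (cluster 2) or close to it (fibroblast-like cells).

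Of the remaining ligands, Vegfc lay mostly in fibroblasts. Fibroblast-like cells held 77.5% of its UMIs, at 6.45, 5.15 and 6.70 CPM, and the dividing cells of cluster 14, with 2 fibroblast markers, held another 13.0%. Within fibroblast-like cells the log2 ratio of Vegfc in Ndrg2-KO DC against control DC wounds was -0.33 (-0.80 to 0.14), an interval that covers both no difference and a sizeable fall. These cells were 8.15% of the Ndrg2-KO DC and 24.1% of the control DC wound, and the part of that share in the level of the whole wound was not tested. Fibroblast-like cells also held 42.5% of Vegfb UMIs, before cluster 7 (15.4%), macrophage-like cells (13.2%) and cluster 2 (12.9%). By level, cluster 7 (27.5 CPM), keratinocyte-like (24.6) and macrophage-like cells (20.1) headed Vegfb. The interval of keratinocyte-like cells overlapped those of cluster 7 and of macrophage-like cells, but cluster 7 stood above macrophage-like cells beyond counting error. Fibroblast-like cells stood at 17.1, and neutrophil-like cells had 5 UMIs in 4905 cells.

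**Figure D3:**
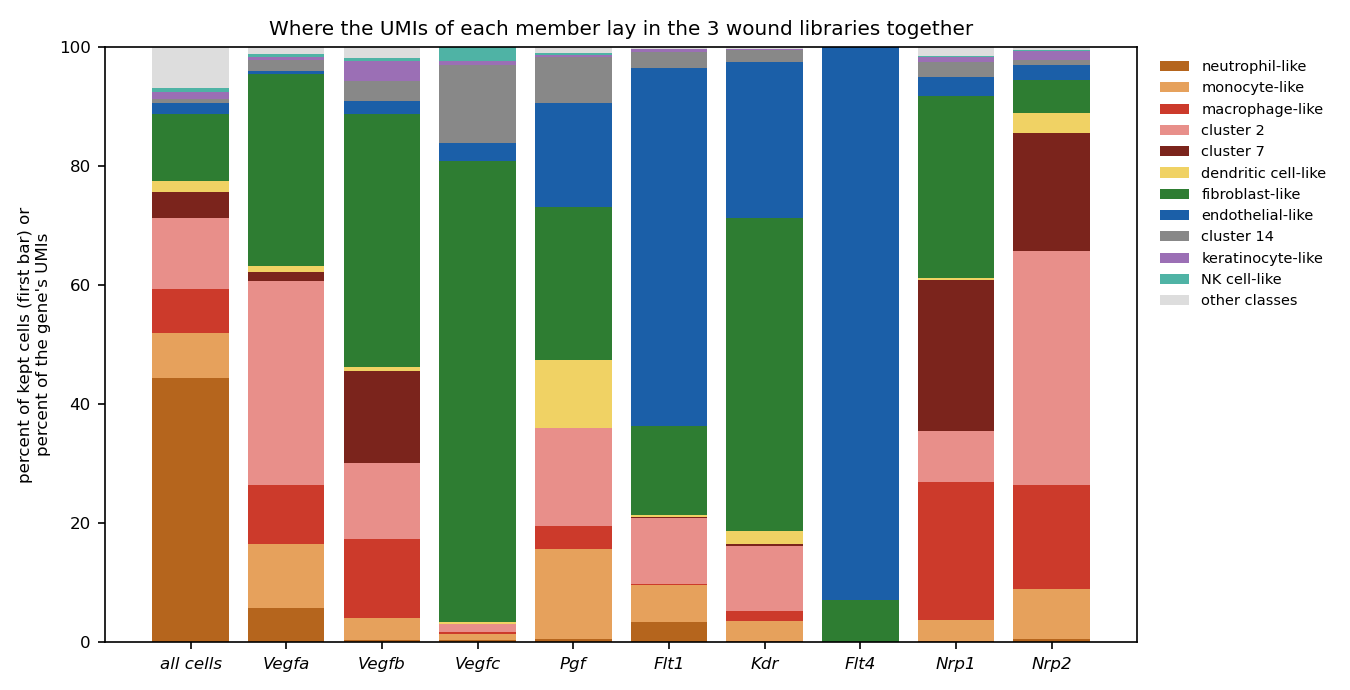
Share of each gene's UMIs held by each wound cell class, summed over the 3 wound libraries, as stacked bars in percent, with the share of all cells as the first bar. Neutrophil-like cells are 44.5% of the cells but 5.80% of Vegfa UMIs, while endothelial-like cells hold 60.1% of Flt1, 26.2% of Kdr and 92.9% of Flt4 UMIs.

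On the receiving side, Flt1 was highest in endothelial-like cells, which held 60.1% of its UMIs over all wounds and 69.7%, 46.5% and 59.1% by wound. Cluster 2 held 15, 102 and 10 Flt1 UMIs, of 499, 331 and 323 in all. The level in endothelial-like cells was 379 (340 to 420), 228 (193 to 267) and 259 CPM (223 to 298) in control DC, Ndrg2-KO DC and blank hydrogel wounds. The control DC wound was highest, with a log2 ratio of -0.73 (-1.02 to -0.45) for the Ndrg2-KO DC and -0.55 (-0.81 to -0.29) for the blank hydrogel wound. Of the 348, 154 and 191 Flt1 UMIs of this cluster, cells with at least 3 endothelial markers held 340, 150 and 179, and those of them with fewer than 3 mural markers held 158, 107 and 122 in 22, 15 and 10 cells. A Flt1 UMI was seen in 22.0%, 11.1% and 11.1% of endothelial-like cells drawn to 1000 UMIs and in 9 of 4835 drawn neutrophil-like cells, whose median depth was 2928 to 3359 UMIs. Without drawing, 22 of the 31, 15 of the 20 and 11 of the 12 cells with at least 3 endothelial markers had one, and the part of the cluster's mixed makeup in these shares was not tested. Fibroblast-like cells carried Flt1 at 7.12, 1.56 and 4.85 CPM, with 106, 20 and 47 UMIs, and the log2 ratio of Ndrg2-KO DC to control DC wounds there was -2.19 (-2.96 to -1.49). The mural markers of these cells summed to 75.0, 39.3 and 59.3 CPM and moved with it, and their part was not tested. Macrophage-like cells, by contrast, had 3 Flt1 UMIs in 804 cells.

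Kdr was split between endothelial-like and fibroblast-like cells. Its level was 150 (126 to 177), 155 (127 to 188) and 115 CPM (91.9 to 142) in endothelial-like cells, with overlapping intervals, and these cells held 26.2% of its UMIs. Fibroblast-like cells held 52.6%, being many and deeply sequenced, at 12.2 (10.4 to 14.1), 26.2 (23.5 to 29.2) and 14.5 (12.2 to 17.1). In them the Ndrg2-KO DC wound was 2.16-fold above control (log2 ratio 1.11, 0.84 to 1.38), and the blank hydrogel wound was not beyond counting error (0.26, -0.07 to 0.58). Their endothelial markers summed to 74.4, 75.5 and 83.7 CPM, their neutrophil markers to 134, 648 and 598 and their fibroblast markers to 97627, 78051 and 74721, and the part of the last 2 lists was not tested. Cells with at least 3 endothelial markers held 6 of 181, 17 of 336 and 3 of 141 of the Kdr UMIs. By drawn cells, a Kdr UMI was seen in 2.13%, 1.73% and 1.86% of fibroblast-like cells. These shares rest on few cells and cannot decide whether the share of cells differed. Without drawing, the shares were 22.3%, 36.3% and 22.3%, at median depths of 30018, 26709 and 28010 UMIs per cell. Neutrophil-like cells held 3 Kdr UMIs in 4905 cells.

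Flt4 was almost wholly endothelial, with 39 of 42 UMIs (92.9%) in endothelial-like cells. It had 13, 21 and 5 UMIs there, and 13 of the 21 in the Ndrg2-KO DC wound came from 1 cell. Among the 192 endothelial-like cells, 55 had a Flt1 UMI, 57 a Kdr UMI and 45 both.

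The co-receptors had another distribution. Nrp1 was held by fibroblast-like cells (30.6%), cluster 7 (25.3%) and macrophage-like cells (23.1%), and endothelial-like cells held 3.18%. By level cluster 7 was first, at 262, 282 and 256 CPM in control DC, Ndrg2-KO DC and blank hydrogel wounds, before macrophage-like cells (211, 217 and 201), endothelial-like cells (125, 117 and 125) and fibroblast-like cells (62.8, 90.9 and 67.4). The 3 wounds overlapped in the first 3 of these classes. In fibroblast-like cells, Nrp1 was higher in the Ndrg2-KO DC wound, with a log2 ratio of 0.53 (0.41 to 0.66), in the same direction as Kdr. Of the 345 fibroblast-like cells with a Kdr UMI, 265 also had an Nrp1 UMI, and 951 of all 1256 did.

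Nrp2 was held by cluster 2 (39.3%), cluster 7 (19.8%) and macrophage-like cells (17.4%), with 5.63% in fibroblast-like cells. Over all wounds, cluster 7 (272 CPM, 261 to 283) and cluster 2 (261, 254 to 269) did not differ beyond their intervals. Macrophage-like (203), dendritic cell-like (151), endothelial-like (123) and monocyte-like cells (117) followed. Within the control DC wound, cluster 7 (322) stood above cluster 2 (231) beyond counting error, from 788 and 574 UMIs. Unlike Nrp1, Nrp2 was lower in cluster 7 of the Ndrg2-KO DC wound, at 322, 238 and 284 CPM. Neutrophil markers there summed to 461, 1406 and 299 CPM, the part of which was not tested. It was highest in the blank hydrogel wound in cluster 2 (231, 240 and 302), monocyte-like (101, 88.8 and 154) and macrophage-like cells (211, 167 and 248). In keratinocyte-like cells it was at 37.4, 92.3 and 108, with 19, 59 and 104 UMIs. That cluster was mixed, with macrophage markers at a sum of 1838, 6487 and 3577 CPM, T cell markers at 1250, 1397 and 663 and fibroblast markers at 5073, 202 and 4762, and their part was not tested. Of 804 macrophage-like cells, 661 had an Nrp1, 614 an Nrp2 and 513 both kinds of UMI. In neutrophil-like cells both were near 0, with 16 Nrp1 and 71 Nrp2 UMIs in 4905 cells.

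**Figure D4:**
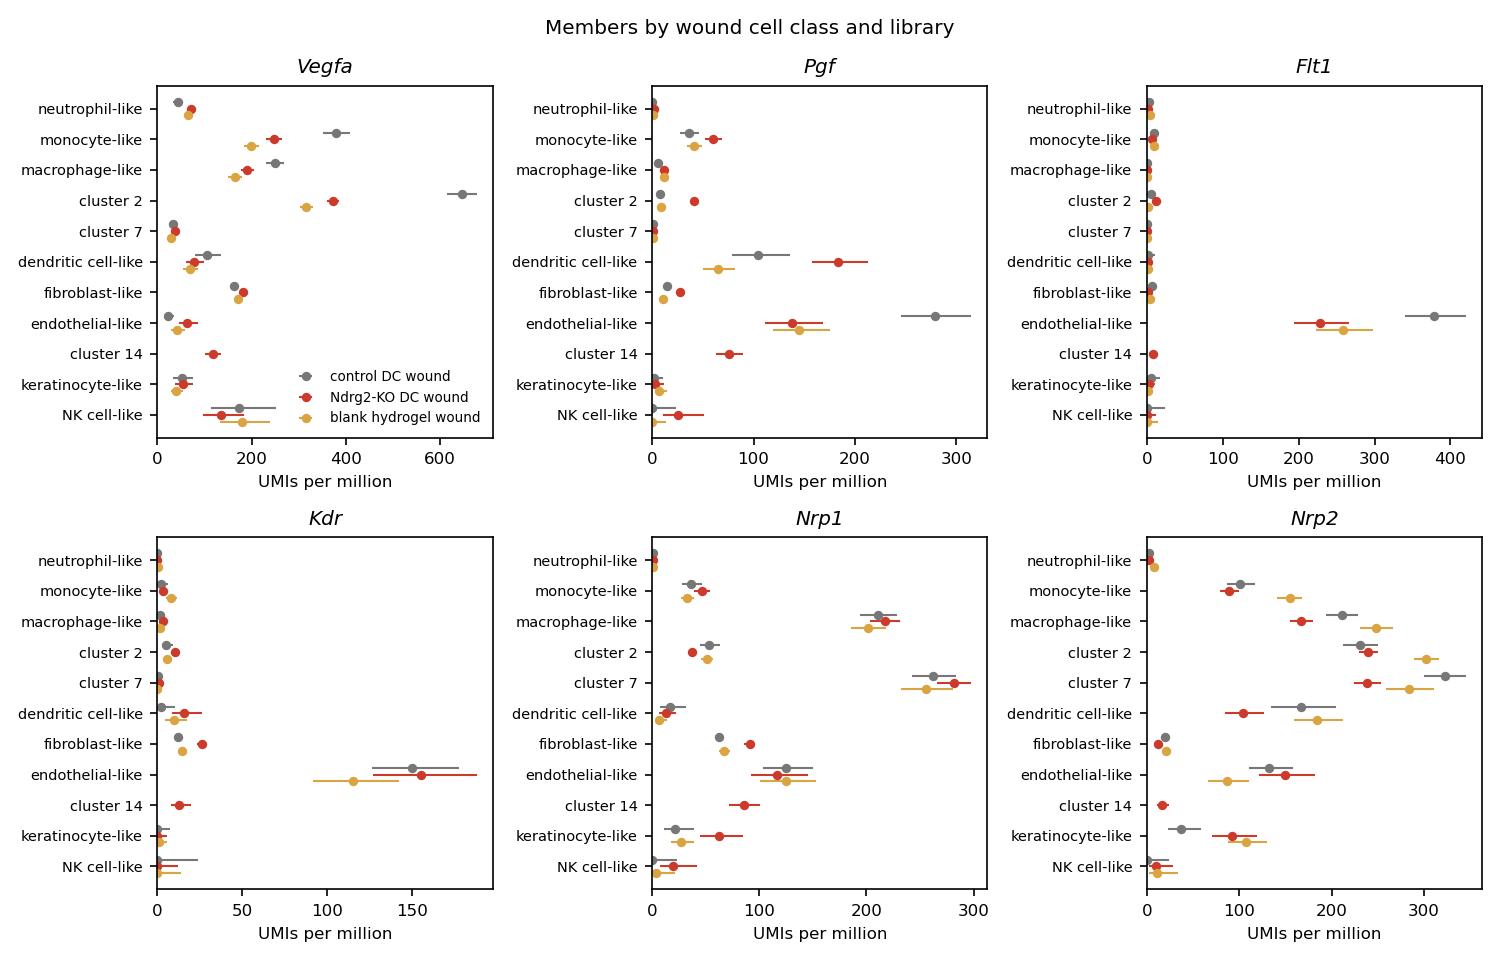
Level of 6 genes by wound cell class, in CPM on a linear axis from 0 that differs between panels, one colour per wound library, with exact 95% Poisson intervals as bars, for classes with at least 20 cells in the library. Vegfa is highest in cluster 2 (647, 374 and 316 by library), Flt1 and Kdr in endothelial-like cells, and Nrp1 in cluster 7 and macrophage-like cells.

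The classes that carried ligand and receptor thus overlapped in part. Fibroblast-like cells held the largest share of Vegfb, Vegfc and Kdr UMIs in each of the 3 wounds. Endothelial-like cells led Flt1 and Flt4 in each wound as well. For Vegfa, Pgf, Nrp1 and Nrp2 the class with most UMIs differed by wound. Cluster 2 led Vegfa and Nrp2 with Ndrg2-KO DCs and blank hydrogels, and fibroblast-like cells led Vegfa (2422 against 1608 UMIs) and cluster 7 led Nrp2 (788 against 574) in the control DC wound. Fibroblast-like cells led Nrp1 except with Ndrg2-KO DCs, where cluster 7 had 1202 and they had 1165 UMIs. In fibroblast-like cells, 1009 of 1256 had a Vegfa UMI and 278 of the 345 with a Kdr UMI had one as well. Endothelial-like cells carried Flt1, Kdr, Flt4 and Pgf at their highest levels over all wounds, and Vegfa at 22.8, 63.6 and 42.0 CPM from 21, 43 and 31 UMIs, an order that turned when each cell was weighted equally (log2 ratio -0.15 for Ndrg2-KO DC against control DC wounds). As a check that does not use clusters, the 52, 43 and 26 cells of any class with at least 3 endothelial markers, of which 31, 20 and 12 were endothelial-like and 18, 18 and 12 fibroblast-like, held 58.5% of all Flt1 and 27.9% of all Kdr UMIs. In them Flt1 was at 218, 126 and 183 and Kdr at 90.6, 98.8 and 89.1 CPM. Vegfa stood at 166, 152 and 68.9 CPM in these cells, above its levels in the endothelial-like cluster and in another order of wounds. Fibroblast-like cells held 223 of the 260, 143 of the 183 and 50 of the 68 Vegfa UMIs there, so these are mostly levels of fibroblast-like cells.

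**Figure D5:**
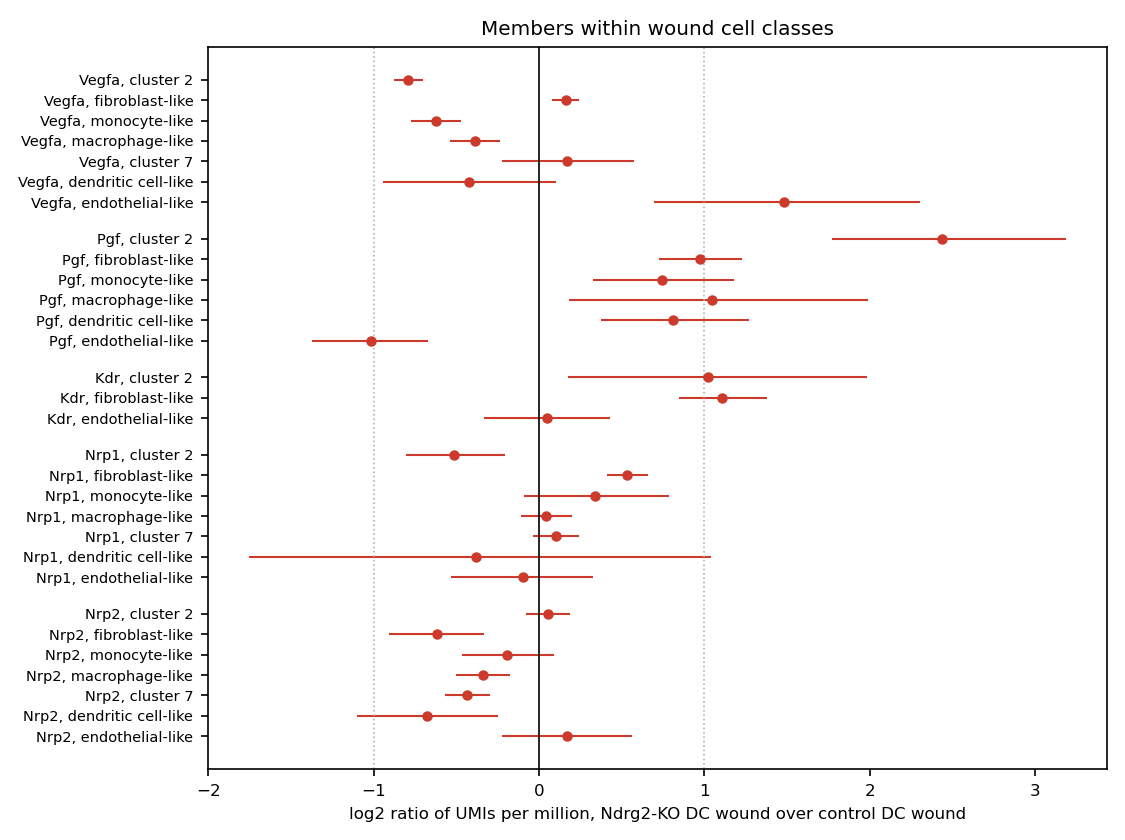
Log2 ratio of the Ndrg2-KO DC to the control DC wound for 5 genes within up to 7 wound cell classes each, with exact conditional 95% intervals as bars and dotted lines at 2-fold. In cluster 2 Vegfa is at -0.79 and Pgf at 2.44, and in fibroblast-like cells Kdr is at 1.11 and Nrp1 at 0.53.

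Over 38 units, each a wound class within a library, the genes most like Flt1 were Adgrf5 (r = 0.862), Esam (0.858), Nes (0.855), Mmrn2 (0.846) and Bcl6b (0.845). For Kdr they were Clec14a (0.834), Aqp1 (0.829), Eng (0.829), S100b (0.828) and Apln (0.820). Vegfa had no close match, with Map2k1 (0.671), Galns (0.665), Pgd (0.665), Acsl4 (0.665) and Nptn (0.664) at the top. Nrp1 was closest to Pmp22 (0.928), Fem1b (0.910), Fam91a1 (0.901), Idh2 (0.900) and Cul9 (0.898), and Nrp2 to Plekho1 (0.925), Anxa4 (0.893), Shtn1 (0.893), Fem1b (0.892) and Pltp (0.892). The measure is the same as for the DCs, over 11621 genes, and the units share 3 libraries.

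The pathway lists were read in the wounds as well, where 5.16% of all genes were called higher and 7.63% lower with Ndrg2-KO DCs and 4.58% and 5.05% with blank hydrogels, and the all-gene medians were -0.15 and -0.04. Of 19 HIF targets, 3 were higher and none lower in the Ndrg2-KO DC against the control DC wound, with a median of 0.48, and 1 was higher and none lower in the blank hydrogel wound, with a median of 0.47. Ero1l, an oxidase of the endoplasmic reticulum, was at 62.3, 195 and 117 CPM in control DC, Ndrg2-KO DC and blank hydrogel wounds. Of the 8 HIF pathway genes themselves, 1 was higher and 1 lower with Ndrg2-KO DCs and 1 higher with blank hydrogels. Egln3, a prolyl hydroxylase that is also a HIF target, was at 10.9, 34.9 and 23.5, and Epas1, which endothelium expresses, at 47.2, 11.6 and 34.9. All 12 semaphorins and plexins could be compared, and none was higher while 7 were lower with Ndrg2-KO DCs and 4 with blank hydrogels, with medians of -1.14 and -0.77. These include Sema3g at 1.95, 0.426 and 0.859 CPM. The share of fibroblast-like cells, lower by a similar order in both wounds, moved with this list, and its part was not tested.

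Of 16 transducers of the VEGF receptor signal, none was higher and 2 were lower in the Ndrg2-KO DC wound (Nos3 and Prkca), and none passed 2-fold in the blank hydrogel wound. Of 11 genes that endothelium is known to induce on VEGF, 1 was higher and 4 were lower with Ndrg2-KO DCs (5.16% and 7.63% of all genes), and none was higher and 1 lower with blank hydrogels (4.58% and 5.05%). Esm1, a tip cell gene, had 24 and 6 UMIs in control DC and Ndrg2-KO DC wounds, and Plaur, the urokinase receptor that myeloid cells also express, was at 277 and 629 CPM. The median log2 ratio of these response genes was -0.50 with Ndrg2-KO DCs and 0.0085 with blank hydrogels. Endothelial-like cells were 3.18%, 1.41% and 1.47% of the cells of control DC, Ndrg2-KO DC and blank hydrogel wounds. The part of that share in the levels of such genes in the whole wound was not tested.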

How the data were processed

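Raw UMI counts per gene and cell barcode were used as deposited, in 1 filtered 10x Genomics 3′ matrix for each of 6 libraries. Per the file headers the authors made them with Cell Ranger 3.1.0 (DCs) and 6.0.0 (wounds). The labels name mm9 and the study's methods the later mouse build. Gene coordinates are those of GRCm38.

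Filtered cells were taken as given in the report. Scrublet scores (scanpy 1.11.5) marked 0.0340% to 0.873% of cells, too few for a working caller in the larger libraries, so no cell was left out as a doublet. UMIs of a gene were summed over cells and divided by the library or class total (CPM, per 1000000 UMIs). Levels carry exact Poisson, ratios exact conditional binomial and shares Clopper-Pearson 95% intervals (SciPy 1.17.1), and 3 UMIs is the limit that a count of 0 allows. A member or gene was compared where both libraries together held at least 20 UMIs. To compare shares of cells, each cell was drawn once to 2000 UMIs (DCs) or 1000 UMIs (wounds), and shallower cells were left out, 472, 1149 and 134 of untreated, VD3 and Ndrg2-KO DCs.

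Clusters were made in Seurat 5.3.0 (R 4.3.3) from log-normalized counts, 2000 variable genes without the 9 members, 15 principal components and 15 neighbours, with Louvain resolution 0.5, over the DC and the wound libraries apart. A cluster was named where at least 3 markers reached 50 CPM and 2-fold over the other cells and no other list led. The text names all 9 members, Vegfd and the 5 genes most correlated with Vegfa, Nrp1 and Nrp2 (DCs and wounds) and with Flt1 and Kdr (wounds). List genes were drawn from the 2 largest rises and 2 largest falls per list and comparison, of which the text gives some, picked after their values were seen. The members, marker lists and gene lists were chosen with earlier results of these data known. The lists cover the HIF pathway and its targets, ATF4 targets, semaphorins and plexins, receptor signal transducers, endothelial response genes, VEGF-C processing, other angiogenic factors and angiogenesis inhibitors. RefSeq promoters (GRCm38.p6) were matched by symbol for 9 of 9 members.

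Alternatives changed the lower limit on cells, the mitochondrial limit, doublets, scaling, the weight of cells, the UMI and fold limits, the depth drawn, and the clustering. No test between conditions was run, since each had a single library. The ratio and share code was tested on simulated counts.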

Additional observations from a re-analysis of the deposited data

How the results depend on the processing

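No paired analysis was possible because each condition is 1 library and the labels carry no replicate numbers. Counting error is the only error measured, and genes of few UMIs, such as Kdr and Vegfc in DCs and Flt4, have wide intervals. Across the settings, Vegfa stayed between 1.504 and 2.08 (log2) for VD3 and between 4.08 and 4.63 for Ndrg2-KO against untreated DCs. Leaving out cells at or above 5% mitochondrial UMIs kept 3125, 3619 and 1721 untreated, VD3 and Ndrg2-KO DCs and turned the Kdr log2 ratio for VD3 to -0.23. The count of members called higher then became 1 for VD3 against untreated and 4 for Ndrg2-KO against VD3 DCs, where 3.89% and 15.4% of all genes were called higher. The mean over cells also gave 1 for VD3 (4.87% of genes). At 1.5-fold the counts were 5 for Ndrg2-KO against untreated (19.1%) and 5 against VD3 DCs (22.6%).

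In the wounds, members called lower with Ndrg2-KO DCs were 1 without the highest doublet scores, where Flt1 was at -0.93 (6.56% of all genes called lower), and 1 under median-ratio scaling, where Vegfc was at -0.84 (750 of 14992 genes). With blank hydrogels they were 0 without those scores (4.79%), 2 as a mean over cells (14.6%), 0 at 50 UMIs or more (3.89%) and 3 at 1.5-fold (14.5%). The Vegfa log2 ratio in endothelial-like cells turned to -0.15 as a mean over cells, the cause of which was not tested. Median-ratio scaling moved the median log2 ratio of all genes by 0.17 for Ndrg2-KO DC wounds, and the mean over cells by -0.32 there and -0.22 for blank hydrogels. For Ndrg2-KO against VD3 DCs, totals without mitochondrial and ribosomal protein genes moved it by -0.19 and the 5% limit by 0.11. Reported values are to be read relative to these shifts.

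The share of Flt1 UMIs in endothelial-like cells was 55.6% with at least 300 UMIs per cell, 54.4% at the 5% limit, 52.5% without doublet scores, 54.8% at resolution 1.0 and, added after seeing the data, 58.5% in cells with at least 3 endothelial markers, which held 27.9% of Kdr. The Nrp1 share of fibroblast-like cells was 33.7% with 300 UMIs, 32.6% without doublet scores, 32.8% with 30 principal components and 33.2% with 2 markers, and that of Nrp2 6.92%, 6.34% with 30 components and 6.46% with 2 markers. The Vegfa share of macrophage-like cells was 11.2% at the 5% limit, 11.3% without doublet scores, 25.01% at resolution 1.0 and 44.2% with 2 markers, and no cluster took that name with 300 UMIs or 30 components. Neutrophil-like cells held 6.37% without doublet scores. Drawn to 1000 UMIs, 0.681%, 1.34% and 8.62% of untreated, VD3 and Ndrg2-KO DCs had a Vegfa UMI, and without drawing 4.85%, 12.8% and 57.1%. In premature cells the Vegfa ratio for VD3 was 2.19 with 2 markers and 3.04 at 1000 UMIs, and for Ndrg2-KO 4.37 with 2 markers.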

Other observations

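Other angiogenic genes differed between the DC cultures as well. Of all genes, 5.10% were called higher and 8.49% lower after VD3, and 11.3% and 10.9% in Ndrg2-KO against untreated DCs. Of 16 angiogenic factors outside the VEGF family, 13 could be compared after VD3, with 4 called higher and 3 lower and a median log2 ratio of 0.04, and 15 in Ndrg2-KO against untreated DCs, with 7 higher and 2 lower and a median of 0.997, beside -0.07 and -0.06 over all genes. Each altered culture had other factors at its highest level. Hbegf, a ligand of the EGF receptor, stood at 4.34, 74.3 and 4.03 CPM in untreated, VD3 and Ndrg2-KO DCs, and Pdgfa, which acts on fibroblasts and mural cells, at 13.9, 131 and 15.5 CPM. Igf1, an insulin-like growth factor, stood at 20.5, 2.40 and 208 CPM. Spp1, the matrix protein osteopontin, was at 520 CPM in the untreated culture and 4392 CPM with Ndrg2 targeted. Of 8 angiogenesis inhibitors, 6 could be compared in each, with 1 higher and 2 lower both times. Thbs1, thrombospondin-1, was at 123 CPM in the untreated and 382 CPM in the Ndrg2-KO culture, and Serpinf1, the pigment epithelium-derived factor, at 1.58, 0.438 and 0.139 CPM. Of 9 endothelial response genes, 1 was higher and 1 lower after VD3 while Ndrg2-KO DCs had 3 higher and 3 lower. Of the VEGF-C processing genes, 1 of 4 was higher and 1 lower after VD3, and 1 of 3 was higher and 0 lower with Ndrg2 targeted.

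In the wounds, 5.16% of all genes were called higher and 7.63% lower for Ndrg2-KO DC and 4.58% and 5.05% for blank hydrogel against control DC wounds. There 16 angiogenic factors could be compared, with 1 higher and 4 lower for Ndrg2-KO DC and 2 higher and 3 lower for blank hydrogel wounds, and medians of -0.51 in both, beside -0.15 and -0.04 over all genes. Spp1 stood at 846, 3515 and 2313 CPM in control DC, Ndrg2-KO DC and blank hydrogel wounds. The growth factors Ptn (115, 30.0 and 24.1 CPM) and Mdk (61.7, 16.5 and 24.5 CPM) were highest in the control DC wound, which also had the largest share of fibroblast-like cells, and the part of that share was not tested. Of 8 inhibitors, 1 was higher in each comparison, and 0 and 1 were lower, with medians of -0.19 and -0.74. Pf4, platelet factor 4, which macrophages also express, was at 434, 1059 and 1141 CPM. Of 10 ATF4 targets, 1 was higher and 1 lower for Ndrg2-KO DC wounds and 1 was higher and 0 lower for blank hydrogel wounds, with Slc7a11, a cystine transporter, at 219, 754 and 715 CPM. Of 5 VEGF-C processing genes, 0 were higher and 1 lower in each.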
